A study of Mus musculus with 6 samples.

Results

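The genes described here are 8 chemokines that attract lymphocytes or monocytes (Cxcl9, Cxcl10, Cxcl11, Ccl5, Ccl2, Ccl20, Cxcl16 and Cx3cl1), the chemokine receptor Cxcr3 and the scavenger receptor Ackr3, in 4T1 cells treated with the KDM3B inhibitor P3FI-90. They are 10 of the 22116 named genes in the table of counts, and 9 of the 10 had enough counts to be tested. The genes were picked by symbol and selected on the counts of this same contrast, whose results were already known, so their fold changes are given as a description and not as evidence. After P3FI-90, Cxcl10 stood 19.7-fold and Ccl5 7.62-fold above DMSO, Ccl20 and Cxcl16 were higher by smaller factors, and Cxcl11 went from 2 counts in all to 146. Cx3cl1 was 1.99-fold lower, the Cxcr3 transcript was nearly gone, Ccl2 and Ackr3 differed by less than 1.2-fold, and Cxcl9 stayed at traces in both groups.

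4T1 is a mouse mammary carcinoma line, and the labels name 4T1 cells only and mention no other cells. One group received the solvent DMSO and the other 10 µM P3FI-90, each for 24 h, and each group gave 3 libraries, made from total RNA with an mRNA kit. The study profiled these cells to ask how blocking KDM3B, an enzyme that removes methyl groups from histone H3 lysine 9, could act on the recruitment and function of CD8+ T cells, and only 1 line, 1 dose and 1 time were compared here. The labels number the libraries within each group but do not say whether they came from separate cultures, so the p-values measure the spread between these libraries, which may be technical.

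Chemokines are small secreted proteins that guide leukocytes along concentration gradients by binding G protein-coupled receptors. CXCL9, CXCL10 and CXCL11 share the receptor CXCR3 of activated T cells and natural killer cells and are classical interferon-induced genes, while CXCL16 and CX3CL1 are made as membrane proteins whose chemokine part is released by proteases. ACKR3, an atypical receptor, binds CXCL11 and CXCL12 and removes them without signaling through G proteins.

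Named genes received between 31327094 and 37395732 reads in a library. Of the 12288 genes that passed the filter on low counts, 9749 (79.3%) passed edgeR's quasi-likelihood test at a Benjamini-Hochberg adjusted p of 0.05, 39.9% as higher and 39.4% as lower after P3FI-90, and the groups did not overlap for 81.2%. In what follows a gene is called higher or lower when it passed this threshold. A normalised count is a read count scaled to the mean effective library size, and a log2 fold change is P3FI-90 minus DMSO with its standard error (SE). Scaling by total counts in place of TMM factors raised the median log2 fold change of all genes by 0.21, and changes smaller than that depend on the scaling. Genes with exactly 2 reads outnumbered genes with exactly 1 in all 6 libraries, and the sources used here do not give whether the mates of a pair were counted separately. Intervals and lower bounds therefore cover counting error only. In bulk RNA, fewer cells with a transcript and less of it per cell cannot be told apart.

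Of the 9 tested genes, 5 were called higher (Cxcl10, Cxcl11, Ccl5, Ccl20 and Cxcl16), 3 lower (Cx3cl1, Cxcr3 and Ackr3) and 1 neither (Ccl2). All 9 had P3FI-90 libraries that did not overlap the DMSO libraries. Against 79.3% called and 81.2% not overlapping over all genes, and given how the genes were chosen, nothing is read from these counts. The median log2 fold change was 0.74 over the 9 genes and 0.0125 over all genes tested.

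**Figure D1:**
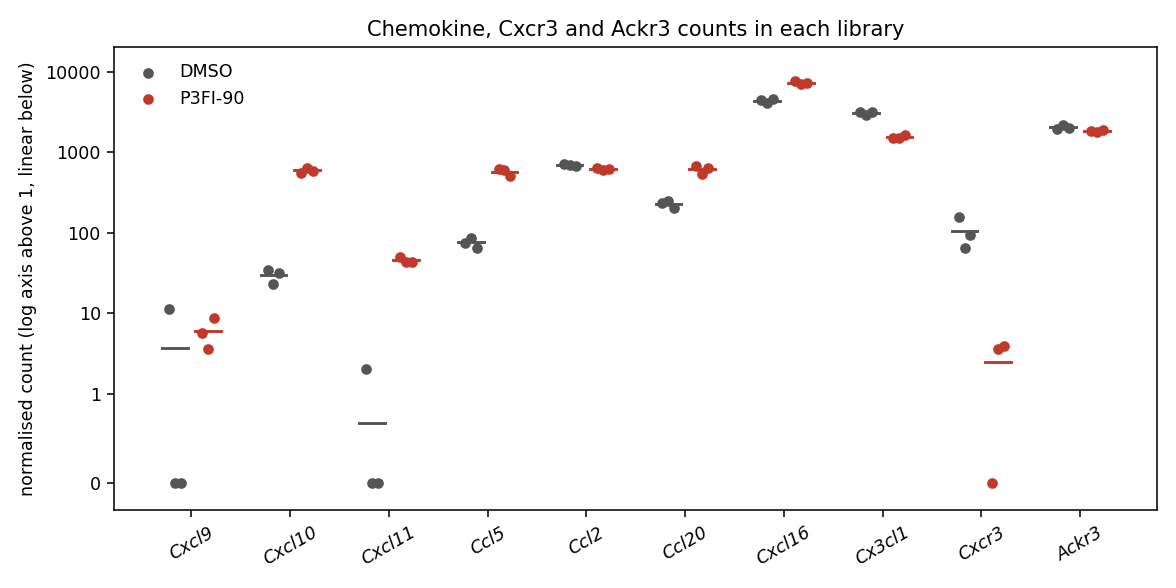
Normalised counts of the 10 genes in each of the 6 libraries. The axis is logarithmic above 1 and linear below, points are libraries, bars are group means, and DMSO is grey and P3FI-90 red. Cxcl10, Cxcl11, Ccl5 and Cxcr3 are the genes with the widest gaps between groups, whereas the points of Cxcl9 overlap.

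The promoters of 2 induced chemokines and of Cxcr3 are shown because, of the genes with an entry, Cxcl10 and Ccl20 had the largest positive and Cxcr3 the largest negative fold change. Each is the stretch of 250 bases before the transcription start in RefSeq (GRCm38.p6), written 5′ to 3′ on the strand of the gene, and 6 of the 10 genes had an entry. Capitals mark matches to 3 motifs searched on both strands, the ISRE core GAAANNGAAA of interferon response elements, the kappa-B core GGGNNNTTCC and the GAS core TTCNNNGAA of STAT dimers. The promoter of Cxcl10 lies at chr5:92348890-92349139 (minus strand), that of Ccl20 at chr1:83116516-83116765 (plus strand) and that of Cxcr3 at chrX:101734148-101734397 (minus strand).
Cxcl10: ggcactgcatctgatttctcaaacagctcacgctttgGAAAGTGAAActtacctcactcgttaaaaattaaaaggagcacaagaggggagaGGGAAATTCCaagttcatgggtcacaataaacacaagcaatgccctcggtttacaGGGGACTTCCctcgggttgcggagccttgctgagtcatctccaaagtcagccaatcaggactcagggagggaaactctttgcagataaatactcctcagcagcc
Ccl20: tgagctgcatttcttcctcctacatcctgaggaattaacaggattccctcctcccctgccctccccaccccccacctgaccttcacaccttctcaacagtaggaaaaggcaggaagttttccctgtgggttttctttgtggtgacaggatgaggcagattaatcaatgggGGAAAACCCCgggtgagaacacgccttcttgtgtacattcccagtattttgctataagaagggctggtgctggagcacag
Cxcr3: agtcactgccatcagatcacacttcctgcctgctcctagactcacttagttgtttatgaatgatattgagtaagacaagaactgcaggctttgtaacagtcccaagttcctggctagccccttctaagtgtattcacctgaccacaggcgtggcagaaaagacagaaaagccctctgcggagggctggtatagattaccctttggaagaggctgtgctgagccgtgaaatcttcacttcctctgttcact
In the Cxcl10 sequence the ISRE core stood 213 to 204 bases before the start, and kappa-B cores stood 159 to 150 and 104 to 95 bases before it. Ccl20 held 1 kappa-B core, on the opposite strand, 80 to 71 bases before the start. No match to the 3 motifs was found in the window of Cxcr3, nor in those of Cxcl9, Cx3cl1 and Ackr3. Over the 32841 promoter entries of this length, 2.98% held the ISRE core, 4.65% the kappa-B core and 7.02% the GAS core. These matches describe the letters only, and binding was not measured in these libraries.

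Among the ligands of CXCR3, Cxcl10 (ENSMUSG00000034855) had the highest counts in both groups. Its normalised counts were 34.4, 22.9 and 31.6 in DMSO and 555.8, 642.9 and 579.9 in P3FI-90. The P3FI-90 libraries thus lay far above all DMSO libraries, and the mean went from 29.6 ± 6.02 to 592.9 ± 45.0 (SD, n = 3). The log2 fold change was 4.30 (SE 0.161), and 1.13% of the genes tested had a larger one.

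Cxcl11 (ENSMUSG00000060183) was read 2 times in the first DMSO library and not at all in the other DMSO libraries, against 54, 48 and 44 reads in the P3FI-90 libraries. The ratio of the summed counts, 2 against 146, was 63.8 with an exact 95% interval from 17.3 to 532. Without the first DMSO library the gene was at 0 in DMSO, and its level in P3FI-90 was then at least 27.5-fold higher against a floor of 3 counts over the group, or at least 13.8-fold against 6 counts should both mates have been counted. GENCODE M21 classes Cxcl11 as a polymorphic pseudogene, and 41.7% of its exon bases lie opposite the pseudogene Gm2673. The strand setting of the counting is not given in the sources used here, so over those bases reads from this gene and Gm2673 cannot be told apart.

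Cxcl9 (ENSMUSG00000029417), the ligand of the same receptor that is most closely tied to interferon gamma, was below the filter. It had 11, 0 and 0 reads in the DMSO libraries and 6, 4 and 9 in the P3FI-90 libraries, so the groups overlapped. The summed counts, 11 against 19, gave a ratio of 1.51 with an exact interval from 0.683 to 3.51. All 11 DMSO reads came from the first DMSO library, and without it the P3FI-90 level was at least 3.58-fold higher (at least 1.79-fold against 6 counts). A difference was therefore not detectable with all libraries, and the value turns on that one library.

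Summed over the 3 CXCR3 ligands, the reads were 47, 19 and 31 in the DMSO libraries and 654, 767 and 645 in the P3FI-90 libraries. Cxcl10 made up 72.3% of these reads in the first DMSO library, all of them in the other DMSO libraries, and between 90.8% and 93.2% in the P3FI-90 libraries. The 3 genes lie next to each other on chromosome 5 with Art3 between Cxcl9 and Cxcl10, and Art3 had no read in any library although 5.91% of the exon bases of Cxcl10 overlap it. Around the cluster the log2 fold changes were 0.29 for Sdad1, 0.89 for Naaa and 2.20 for Ppef2, which had a mean of 3.73 normalised counts in DMSO, on one side and 0.041 for Nup54 and 0.68 for Scarb2 on the other, all smaller than that of Cxcl10. The neighbours were taken by position after the values were known.

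Ccl5 (ENSMUSG00000035042), an attractant of effector T cells, had normalised counts of 74.9, 86.7 and 65.3 in DMSO and 611.0, 606.9 and 505.5 in P3FI-90. Every P3FI-90 library lay well above every DMSO library, and the mean went from 75.6 ± 10.7 to 574.5 ± 59.8 (SD, n = 3). Its log2 fold change was 2.93 (SE 0.144), with 2.34% of the genes tested above it. The chemokine genes that follow it on chromosome 11, Ccl9 and Ccl6, had log2 fold changes of 1.44 and 1.26 at far lower counts, with 56.5 and 24.2 normalised counts in P3FI-90. On the other side, Heatr9 had no read in DMSO and a mean of 14.8 normalised counts in P3FI-90, Taf15 had a log2 fold change of 0.28 and Mmp28 one of 1.94.

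Ccl20 (ENSMUSG00000026166), the ligand of CCR6 on Th17 cells and dendritic cells, had normalised counts of 234.8, 250.5 and 202.1 in DMSO and 670.0, 527.8 and 633.8 in P3FI-90. The lowest P3FI-90 library was above the highest DMSO library by more than the range within either group. The mean went from 229.1 ± 24.7 to 610.5 ± 73.9 (SD, n = 3), which is 1.42 on the log2 scale (SE 0.122). The 3 nearest genes on either side of Ccl20 had no read in any library.

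Ccl2 (ENSMUSG00000035385), the monocyte attractant that acts through CCR2, had normalised counts of 704.3, 696.1 and 677.7 in DMSO and 628.8, 599.7 and 624.0 in P3FI-90. The P3FI-90 values were all below the DMSO values, and the gap between the groups was larger than the range within either. The log2 fold change of -0.17 (SE 0.0744) did not pass the threshold, and it was 0.048 when libraries were scaled by total counts. Ccl7, which follows Ccl2 on chromosome 11 and attracts the same cells, was called higher at a log2 fold change of 1.31 (SE 0.391), with 11, 21 and 23 reads in DMSO and 38, 65 and 55 in P3FI-90.

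The chemokines made as membrane proteins differed in opposite directions. Cxcl16 (ENSMUSG00000018920), the ligand of CXCR6, had normalised counts of 4476, 4066 and 4537 in DMSO and 7606, 7027 and 7250 in P3FI-90. The groups were far apart relative to their spread, with means of 4359 ± 256 and 7294 ± 292 (SD, n = 3) and a log2 fold change of 0.74 (SE 0.0459). Of the exon bases of Cxcl16, 18.3% lie opposite Zmynd15, whose own log2 fold change was 0.94, and whether reads of one gene were counted on the other was not tested.

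Cx3cl1 (ENSMUSG00000031778), also called fractalkine and the ligand of CX3CR1, had normalised counts of 3131, 2922 and 3168 in DMSO and 1510, 1511 and 1611 in P3FI-90. All P3FI-90 libraries lay below all DMSO libraries. The mean went from 3074 ± 133 to 1544 ± 58.3 (SD, n = 3), which is -0.99 on the log2 scale (SE 0.053). It lies on chromosome 8 between 2 other chemokine genes that were scarcely read, Ccl22 with means of 0 and 0.653 normalised counts and Ccl17 with 7.96 and 2.45. Ciapin1 and Coq9, the next genes beyond Ccl17, differed in the other direction, with log2 fold changes of 0.33 and 1.18, while Arl2bp on the side of Ccl22 had -0.56.

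Cxcr3 (ENSMUSG00000050232), the receptor for CXCL9, CXCL10 and CXCL11, had 156, 54 and 92 reads in the DMSO libraries and 0, 4 and 4 in the P3FI-90 libraries. The DMSO libraries themselves varied, with a coefficient of variation of 45.0% in normalised counts, but the lowest was well above every P3FI-90 library. The log2 fold change was -5.34 (SE 0.575), a 40.5-fold lower level, and only 6 tested genes had a more negative one. The summed reads, 302 against 8, gave a ratio of 43.2 with an exact interval from 21.6 to 101. Without the first DMSO library, the highest of the 3, the ratio was 32.3 with an interval from 16 to 76.2. On one side of Cxcr3 on the X chromosome, Ogt and Taf1 had log2 fold changes of -0.18 and 0.37. Beyond them, Itgb1bp2 was below the filter, with means of 10.0 normalised counts in DMSO and 1.499 in P3FI-90. On the other side Gm4779, also below the filter, had means of 1.143 and 0. The next genes there, 8030474K03Rik and Nhsl2, had no read in any library.

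Ackr3 (ENSMUSG00000044337) had normalised counts of 1946, 2157 and 1993 in DMSO and 1808, 1803 and 1870 in P3FI-90. The DMSO values were all above the P3FI-90 values, by a gap smaller than the range within DMSO. The mean went from 2032 ± 111 to 1827 ± 37.5 (SD, n = 3), or -0.15 on the log2 scale (SE 0.053), and was called lower, whereas scaling by total counts gave 0.061 and no call. The call was also lost without the second DMSO library, the first P3FI-90 library or the second P3FI-90 library, at log2 fold changes of -0.11, -0.15 and -0.14.

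Levels can be compared between genes only per length, here as normalised counts per kilobase of merged exons in GENCODE M21. In DMSO the order was Cxcl16 at 1443, Cx3cl1 at 782.1, Ccl2 at 608.7, Ackr3 at 606.9, Ccl20 at 161.2, Ccl5 at 78.8, Cxcr3 at 61.0, Cxcl10 at 13.2, Cxcl9 at 1.23 and Cxcl11 at 0.178 counts per kilobase. The ranges over the 3 libraries overlapped for the neighbours Ccl2 and Ackr3, Ccl5 and Cxcr3, and Cxcl9 and Cxcl11. In P3FI-90 the order was Cxcl16 at 2415, Ccl5 at 598.4, Ackr3 at 545.7, Ccl2 at 542.6, Ccl20 at 429.7, Cx3cl1 at 392.9, Cxcl10 at 263.3, Cxcl11 at 12.02, Cxcl9 at 1.99 and Cxcr3 at 1.45. Here the neighbours Ccl5 and Ackr3, Ackr3 and Ccl2, Ccl20 and Cx3cl1, and Cxcl9 and Cxcr3 overlapped. Ccl5 moved from sixth to second place, Cx3cl1 from second to sixth and Cxcr3 from seventh to last.

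Over the 8 chemokines, the summed counts per kilobase were 3089 ± 97.2 in DMSO and 4655 ± 149.7 in P3FI-90 (SD, n = 3). Cxcl16 made up 46.7% ± 1.42 of this sum in DMSO and 51.9% ± 0.532 in P3FI-90, and was the most abundant chemokine transcript of the 8 in both. Ccl5 went from 2.56% ± 0.436 to 12.9% ± 1.28 and Cxcl10 from 0.425% ± 0.0743 to 5.67% ± 0.590. Cx3cl1 went from 25.3% ± 0.413 to 8.45% ± 0.472 and Ccl2 from 19.7% ± 0.760 to 11.7% ± 0.234. A share of a sum moves with the other members, so the lower share of Ccl2 is not a lower level of similar size.

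**Figure D2:**
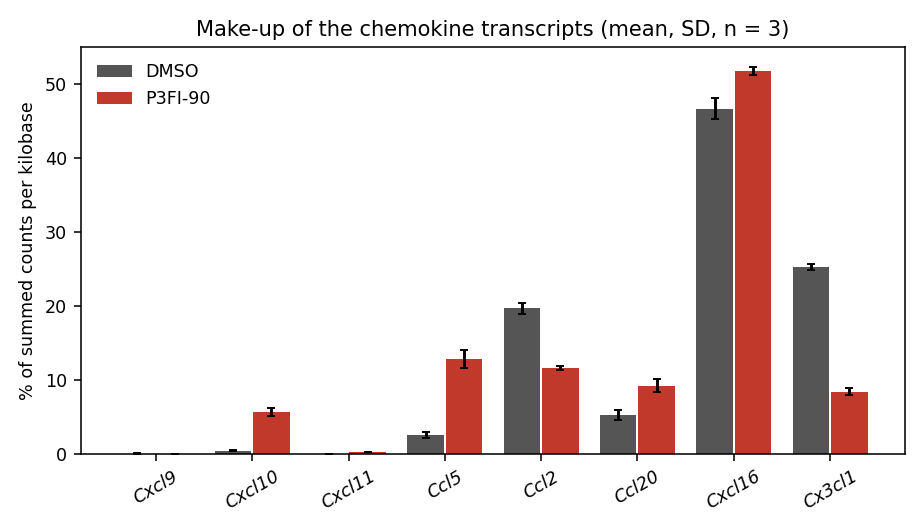
Share of each chemokine in the summed counts per kilobase of the 8 chemokines, as the mean with SD over the 3 libraries of each group. Cxcl16 is the tallest bar in both groups, Cx3cl1 and Ccl2 are the next in DMSO, and Ccl5 and Ccl2 are the next in P3FI-90.

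The other chemokines were taken from a list of 38 mouse ligands, of which 9 had no read in any library and 17 could be tested. Of these 17, 10 were called higher, 4 lower and 3 neither, and their median was 1.26 on the log2 scale, beside 39.9% higher, 39.4% lower and a median of 0.0125 over all genes. The list holds the genes chosen on these counts, so it is not independent of them. Leaving out the 7 tested ligands already described, 5 were higher, 3 lower and 2 neither. Ccl4, an attractant of monocytes and T cells, had no read in the DMSO libraries and 67, 75 and 52 in the P3FI-90 libraries, at least 56.5-fold higher (at least 28.3-fold against 6 counts). Ccl4 here, and Cxcl11 among the 17, passed the filter on their P3FI-90 counts alone and could only be called higher. Ccl6 was also called higher, and its DMSO reads, 14, 9 and 5, would not have passed the filter alone. Ccl9 was higher by 1.44 (SE 0.36) on the log2 scale. Among the neutrophil attractants, Cxcl5, Cxcl1 and Cxcl3 were called lower, while Cxcl2 at -0.28 and Ppbp at 0.34 on the log2 scale did not pass the test; Cxcl2 and Ppbp were named after their values were seen. Cxcl5, in DMSO read far more often than any gene of the 10, went from 48170 ± 1383 to 6037 ± 127.5 normalised counts (SD, n = 3), 7.98-fold lower. In P3FI-90 the mean count of Cxcl5 lay below that of Cxcl16, at 7294 normalised counts. These counts are not scaled to gene length, so they do not rank the levels of the 2 transcripts. Cxcl1 and Cxcl3 had log2 fold changes of -1.50 and -0.49.

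**Figure D3:**
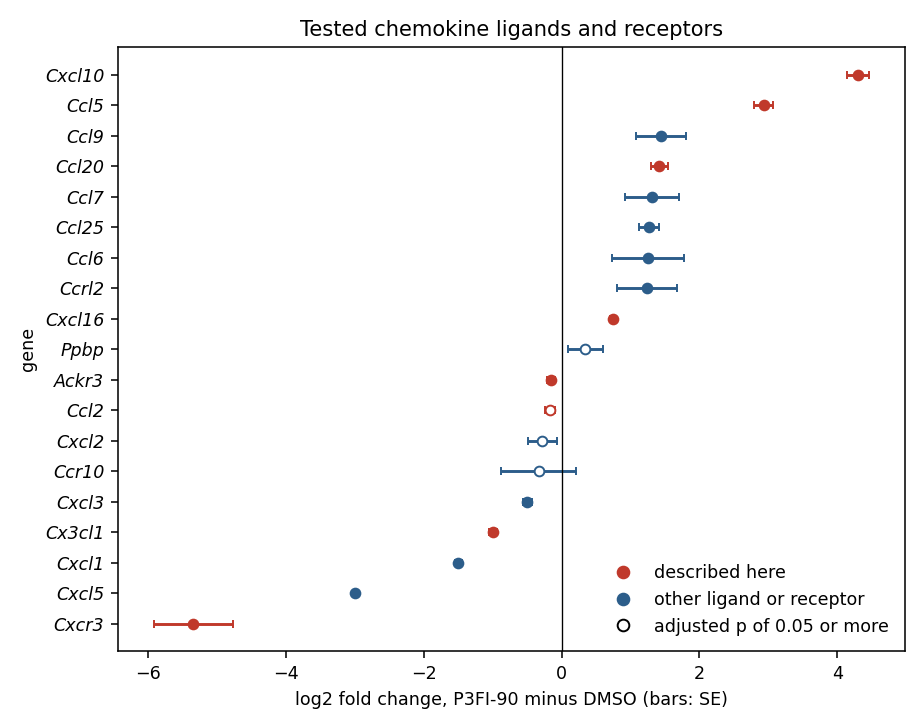
Log2 fold change of P3FI-90 minus DMSO, with SE bars, for the tested chemokine ligands and receptors that had more than 3 reads in each group. Red points are the genes described here, blue points the other ligands and receptors, and open points did not pass the adjusted p threshold of 0.05; Cxcl10 lies at one end and Cxcr3 at the other.

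Most receptors for these ligands were scarcely read. Of 24 chemokine receptor genes, 9 had no read in any library and 4 could be tested. Of these 4, Ccrl2 was higher, Cxcr3 and Ackr3 lower and Ccr10 neither, with a median log2 fold change of -0.24. Cxcr3 passed the filter on its DMSO counts alone and could only be called lower. The DMSO reads of Ccrl2, 7, 20 and 24, would not have passed the filter without its P3FI-90 reads. Ccrl2, an atypical receptor that presents chemerin, had a log2 fold change of 1.24 (SE 0.433), from 18.6 ± 9.94 to 43.6 ± 5.78 normalised counts (SD, n = 3). Ccr2, the receptor for CCL2, and Cxcr4 had no read in any library. Ccr6, the receptor for CCL20, had 4 reads, all in 1 P3FI-90 library. Cxcr6, the receptor for CXCL16, had no read in DMSO and 6, 5 and 2 in P3FI-90, at least 3.79-fold higher, and Cx3cr1, the receptor for CX3CL1, had none in DMSO and 5, 8 and 7 in P3FI-90, at least 5.83-fold higher. Against 6 counts these bounds were 1.89 and 2.91.

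Genes around the receptors and ligands were read from lists written for this purpose, and their counts are given beside the 39.9% called higher and 39.4% called lower over all genes. In the list of receptor coupling and desensitisation, 9 of 11 genes were tested, and 3 were higher and 5 lower. Their median log2 fold change was -0.34. Gnai2, the inhibitory G protein subunit that chemokine receptors use, had the largest difference at -1.43 (SE 0.0362), and its relative Gnai3 had -0.68 (SE 0.038). Arrb1, which encodes an arrestin that uncouples receptors, was higher at 0.55 (SE 0.0615). In the list of shedding and trimming, 5 of 6 tested genes were lower and none higher, with a median of -0.49. Adam17, a protease that releases CX3CL1 and CXCL16 from the membrane, had -0.93 (SE 0.0394), and Adam10, which does so in resting cells, had -0.17 (SE 0.035), which is smaller than the shift from scaling by total counts. Dpp4, the protease that trims CXCL10, had no read in any library.

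Among 12 inducing cytokines and their receptors, 10 were tested, and 4 were higher and 4 lower. Their median log2 fold change was -0.022. Ifnb1 had no read in DMSO and 8, 15 and 6 in P3FI-90, at least 8.45-fold higher (at least 4.22-fold against 6 counts), and Ifng had no read in any library. Il1b was higher at 1.98 (SE 0.338) and Tnf at 1.09 (SE 0.471), both from fewer than 20 normalised counts in DMSO and Tnf with overlapping groups, whereas Il1a was lower at -0.83 (SE 0.0446). The DMSO reads of Tnf, 10, 23 and 12, would not have passed the filter without its P3FI-90 reads. Both chains of the interferon gamma receptor were higher, Ifngr1 at 0.72 and Ifngr2 at 0.81, and of the type I interferon receptor Ifnar2 was lower at -0.39 and Ifnar1 had 0.073, which did not pass the test.

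Of 16 regulators of chemokine genes, all of which were tested, 9 were higher, 6 lower and 1 neither, with a median of 0.49. Higher were the interferon regulatory factor Irf7 at 2.56 (SE 0.199) and the NF-kappaB subunits Relb at 2.54 (SE 0.0512) and Rela at 2.11 (SE 0.039). Irf3, the factor downstream of TBK1, was lower at -1.27 (SE 0.0724), Ikbke at -1.12 (SE 0.0535) and Sting1 at -0.45 (SE 0.0816). Of 5 genes of chemokine mRNA decay, 3 were lower and 2 neither, with a median of -0.22. Zc3h12a, an RNase that cleaves inflammatory transcripts, had -1.51 (SE 0.0602), and Zfp36l2, which binds AU-rich elements, had -1.04 (SE 0.0362).

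**Figure D4:**
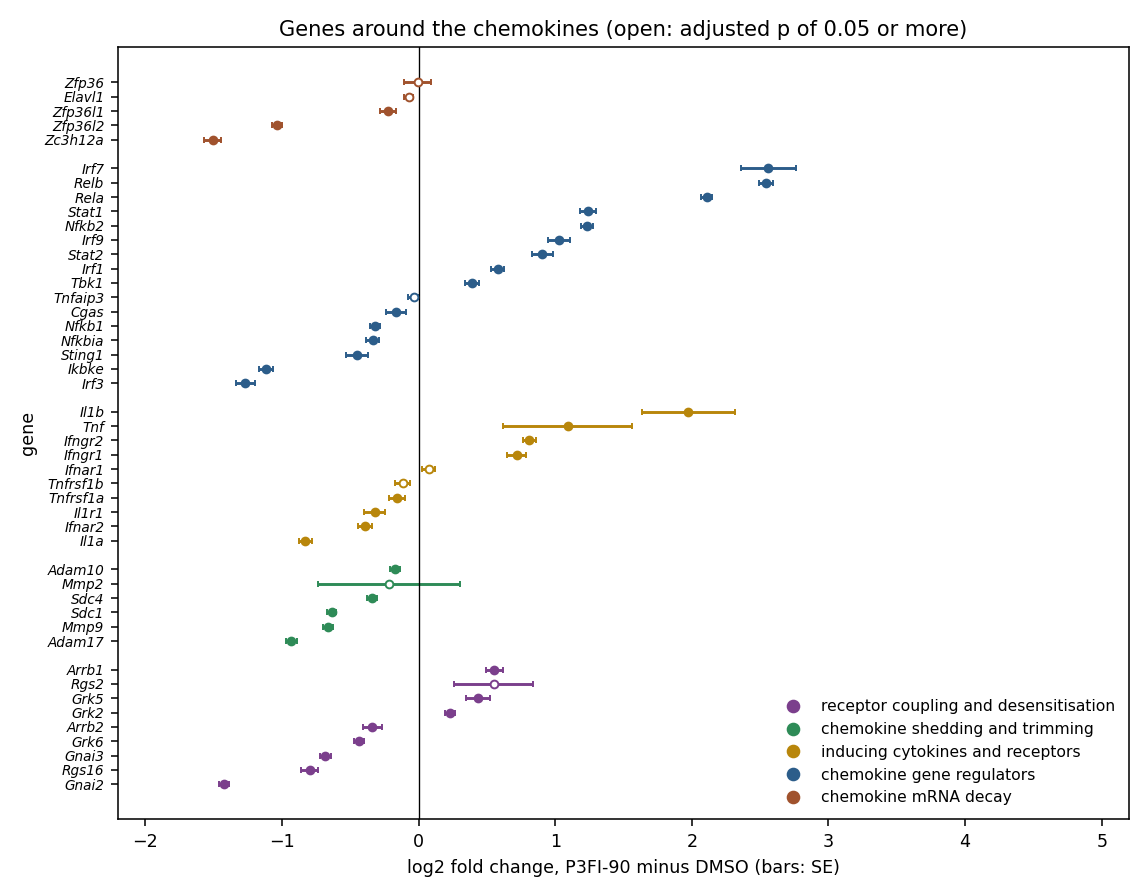
Log2 fold change of P3FI-90 minus DMSO, with SE bars, for the tested genes of 5 lists around the chemokines, coloured by list. Open points did not pass the adjusted p threshold of 0.05. Irf7, Relb and Rela stand furthest to the right, Zc3h12a, Gnai2 and Irf3 furthest to the left.

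Profiles were compared by the Euclidean distance between log2 CPM values over the 6 libraries, each gene centred on its own mean. The 5 genes most like Cxcl10 were Tmem130 at 0.273, Ppp1r15a at 0.349, Siglecg at 0.415, Ddit3 at 0.429 and Plcxd2 at 0.477, with log2 fold changes from 4.12 to 4.38. The 5 most like Cxcr3 were Tspan1 at 1.16, Kyat3 at 1.31, Padi3 at 1.33, Ly6a at 1.38 and Cyp24a1 at 1.55, with log2 fold changes from -6.18 to -4.68. The 6 libraries form 2 groups, so these distances mostly rank genes by the size of the group difference.

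Markers of other cells were read in the same libraries, because Cxcr3 and several of the ligands are usually made by immune cells. Of the 13 T and NK lymphocyte markers in the table, 9 had no read in any library, including Cd3d, Cd3g, Cd4, Cd8a and Nkg7, and Cd3e had 2 reads in each of 2 libraries. Lck was the only one tested, at 104.6 normalised counts in DMSO and 161.4 in P3FI-90, and the summed level of the list was 90.3 to 125.5 in DMSO and 158.7 to 172.2 in P3FI-90. The macrophage marker Adgre1 had no read, and the 11 markers of macrophages and dendritic cells summed to 595.0 to 656.4 normalised counts in DMSO and 675.9 to 811.9 in P3FI-90, mostly from Cd68, Cd74 and Csf1r. Of its 4 tested markers 3 were called higher, beside 39.9% over all genes. These were Csf1r at 1.56, Flt3 at 2.48 and Cd74 at 0.43 on the log2 scale, and Cd68 at -0.21 was not called. Flt3, with 8, 8 and 0 reads in DMSO, passed the filter on its P3FI-90 counts alone and could only be called higher. The 5 markers shared by leukocytes, with Laptm5 at 0, summed to 36.1 to 95.1 in DMSO and 16.2 to 29.9 in P3FI-90. Of the 2 tested, Coro1a was called lower at -2.32 on the log2 scale, and Ptprc at 0.53 was not called. The P3FI-90 reads of Coro1a, 6, 12 and 12, would not have passed the filter alone. The 5 endothelial markers summed to 12.04 to 29.6 in DMSO and 36.0 to 57.1 in P3FI-90, and the 6 fibroblast markers, nearly all Pdgfra, to 1411 to 1479 and 1001 to 1096. Of the 9 mammary epithelial markers, 8 were tested and all 8 were lower, beside 39.4% called lower over all genes. The 9 summed to 160200 to 169200 in DMSO and 68250 to 71450 in P3FI-90. The part of these levels in the values of the chemokines and Cxcr3 was not tested.

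The first DMSO library held 25 genes with at least 10 reads that no other library showed, against 1 and 2 in the other DMSO libraries and 8 to 10 in the P3FI-90 libraries. With at least 4 reads the numbers were 87 in the first DMSO library, 24 and 30 in the other DMSO libraries and 97 to 123 in the P3FI-90 libraries, so at that limit it differed only from the other DMSO libraries. Among the markers, Lyz2 with 16 reads, Gzmb with 8, C1qa with 6 and Col3a1 with 38 were read in it alone. The 11 DMSO reads of Cxcl9 and the 2 of Cxcl11 were in the same library, which also held the highest count of Cxcr3, and the values of these genes without it are given above.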

How the data were processed

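4T1 cells given DMSO or P3FI-90 were profiled by RNA-seq of mRNA libraries, 3 per group. The authors deposited read counts per gene, whole numbers without normalization. The submitters' processing notes name CASAVA, HISAT2, StringTie and GRCm39, without roles, and the counting tool, annotation and strand setting are not given in the sources used here. Of 22401 rows, the 285 without a gene name (0.483% to 0.556% of a library's reads) were left out.

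Counts were analysed in R 4.3.3 with edgeR 4.0.16 (filterByExpr, TMM, quasi-likelihood test, Benjamini-Hochberg adjustment over 12288 genes, all 6 libraries, no covariate). The SE is the absolute log2 fold change, fitted without a prior count, divided by the square root of the F statistic. With 3 libraries against 3, an exact permutation test of 1 gene cannot give a p below 0.1. TMM factors were 0.927 to 0.930 for DMSO and 1.08 for P3FI-90. Chi-square per gene was 5.44 to 8.43 between libraries of a group, so none was a copy of another. A floor of 3 counts over a group gave lower bounds. Exon lengths, overlaps and neighbours came from GENCODE M21, whose build (GRCm38) differs from the GRCm39 of the notes, so coordinates are given only for the RefSeq promoters, in their own build (GRCm38.p6). Of 200 genes changed in simulated data over all tested genes, 195 were found, and 6.25% of the calls were false. The simulation gave all genes the same dispersion and changed only 200 of 12288, by exactly 2-fold or 4-fold. In the data 79.3% were called, so these rates do not carry over to this comparison.

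The genes and all lists were chosen with earlier results of these data known. Named from each list of more than 12 genes were the 3 largest rises and falls past the threshold with at least 10 normalised counts in a group, besides the 10 genes themselves. Alternatives were other scalings (DESeq2 1.42.0 size factors, total counts, upper quartile), another filter (none, or 10 counts or more in all libraries), DESeq2's Wald test, limma 3.58.1 (voom, or log2(CPM + 1)), a block for the replicate number and leaving out each library. Halving the counts was added after the data were seen.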

Additional observations from a re-analysis of the deposited data

How the results depend on the processing

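Cxcl10, Ccl5, Ccl20, Cxcl16 and Cx3cl1 kept their direction and call under all 16 alternatives, with log2 fold changes of 3.28 to 4.52, 2.46 to 3.14, 1.29 to 1.63, 0.69 to 0.96 and -1.03 to -0.78. Cxcr3 kept its call in the 15 that could test it, from -5.76 to -1.85, the smallest with limma on log2(CPM + 1), where the added 1 compresses low counts. Cxcl11 kept its call in the same 15. Its fitted fold change depends on the prior count and is not given. Requiring at least 10 counts in every library left 7 of the 10 genes and removed Cxcl11 and Cxcr3. Scaling by total counts gave 6179 higher and 3641 lower genes (62.9% of calls higher, against 50.3%), and turned Ccl2 to 0.048 and Ackr3 to 0.061 (edgeR adjusted p = 0.559 and 0.3). Under it, mRNA decay had 1 gene higher in place of 0, chemokine receptors 1 lower in place of 2, and inducing cytokines 2 lower in place of 4. Inducing cytokines called higher fell from 4 to 3 with upper quartile scaling, with the replicate block and without DMSO 1, DMSO 3, P3FI-90 1 or P3FI-90 2. With upper quartile scaling Ccl2 was called lower (-0.20). Receptors called higher numbered 3 with no filter and 0 with at least 10 counts in every library, where 1 was lower. Over all alternatives, ligands called higher ranged from 7, with at least 10 counts in every library, to 10. Regulators called lower ranged from 5 to 6. Leaving out 1 library, receptors called higher ranged from 0 (without DMSO 1 or P3FI-90 2) to 1 and lower from 1 (without DMSO 2, P3FI-90 1 or P3FI-90 2) to 2, and Ackr3 from -0.18 to -0.11. Equally numbered libraries did not deviate together (correlations of -0.021, 0.015 and 0.0049), and the fit with a replicate block called 4802 genes higher and 4722 lower and kept the call of each of the 9 tested genes. Depth limits Cxcl9, Cxcl11, Cxcr3 and the receptors with under 30 reads.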
